A study of Mus musculus with 8 samples.

Results

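The genes described here are the axon guidance ligands and receptors: semaphorins with their plexin and neuropilin receptors, ephrins with Eph receptors, Slits with Robos, and netrins with Unc5 receptors and Dcc. They were taken by gene symbol, and each gene was read through the transcript with the highest total count over the 6 libraries. Of 71 symbols that matched, 68 had a total of 100 counts or more and were kept, out of 34980 genes paired with a transcript. Efna4, Epha1 and Epha2 had totals of 2, 4 and 89 and were left out; the lowest kept was Sema3b at 161. The 68 genes were 36 ligands and 32 receptors, and all of them entered the tests.

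The tissue, from B6D2 mice, was layer IV of the visual cortex, cut out by hand and frozen. Wild-type mice (Otx2 +/+) were sampled at postnatal day 30 (P30) and at postnatal day 100 (P100), and mice heterozygous for Otx2 (Otx2 +/-, carrying a GFP allele in place of 1 copy according to the design text) at P30. Each group had 2 libraries, and 4 mice were pooled per condition. Whether a group's 2 libraries were made from different pools of mice is not labelled. The p-values therefore rest on a spread between duplicates that may be technical. Heterozygous P100 samples were not analysed here. Otx2 is a homeodomain factor made mainly outside the cortex and taken up by parvalbumin interneurons, whose perineuronal nets it helps to maintain.

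Guidance ligands are secreted or held on cell surfaces and steer growing axons and dendrites by repelling or attracting them. In the cortex after birth many of them stay expressed, and they take part in placing synapses, pruning axons and limiting plasticity. Class 3 semaphorins are secreted and signal through a neuropilin and a plexin together. Ephrins signal through Eph receptor tyrosine kinases at cell contacts, Slits through Robos, and netrins through Dcc and Unc5 receptors. Sema3a, a class 3 semaphorin, binds chondroitin sulfate and collects in perineuronal nets.

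The libraries held 11016841 to 15308781 counts over genes, and the members took 0.408% to 0.417% of them. Otx2 itself could not check the genotype labels: it had no count in 5 libraries and 4.75 CPM (counts scaled to library size by the TMM method) in heterozygous replicate 2. In that library Ttr, a choroid plexus transcript, stood at 584 CPM, and the choroid plexus markers summed to 1060 CPM, against 158 to 216 CPM elsewhere. Xist reached 785 and 924 CPM in heterozygotes, and no wild-type library passed 0.639 CPM, while the Y-linked transcripts summed to at most 6.30 CPM in the heterozygous libraries and at least 342 CPM in the wild-type ones. Genotype and these sex-linked transcripts split the libraries the same way, and the effects of genotype and sex cannot be told apart. Activity-regulated genes summed to 2566 and 3117 CPM in wild-type P30, 527 and 618 CPM in wild-type P100, and 512 and 814 CPM in heterozygous P30.

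The upstream sequences of 4 members are shown because Slit2 kept its age difference under all 14 alternative analyses, and Sema7a, Robo3 and Unc5b were lower both at P100 and in heterozygotes. They come from RefSeq (GRCm38.p6) and run 5′ to 3′ on the gene's strand, from 250 bases before the annotated start and leaving out bases inside the counted transcript. Capitals mark a match to TAATCC, the core motif of Otx2 (read here from the other strand).
Slit2 (chr5:47982905-47983153, plus strand): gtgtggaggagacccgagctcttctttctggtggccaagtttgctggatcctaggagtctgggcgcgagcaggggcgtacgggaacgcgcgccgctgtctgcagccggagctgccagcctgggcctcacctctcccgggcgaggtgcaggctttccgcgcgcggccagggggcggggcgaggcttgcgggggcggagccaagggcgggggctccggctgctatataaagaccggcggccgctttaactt
Sema7a (chr9:57939862-57940111, plus strand): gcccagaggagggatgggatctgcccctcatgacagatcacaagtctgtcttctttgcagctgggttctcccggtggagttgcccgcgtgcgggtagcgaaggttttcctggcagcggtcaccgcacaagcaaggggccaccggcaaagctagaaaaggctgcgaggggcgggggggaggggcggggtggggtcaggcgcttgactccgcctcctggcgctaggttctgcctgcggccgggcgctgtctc
Robo3 (chr9:37433247-37433425, minus strand): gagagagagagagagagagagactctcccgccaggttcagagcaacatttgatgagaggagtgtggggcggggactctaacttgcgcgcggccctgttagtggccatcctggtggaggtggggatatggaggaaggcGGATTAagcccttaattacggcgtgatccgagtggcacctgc
Unc5b (chr10:60831582-60831831, minus strand): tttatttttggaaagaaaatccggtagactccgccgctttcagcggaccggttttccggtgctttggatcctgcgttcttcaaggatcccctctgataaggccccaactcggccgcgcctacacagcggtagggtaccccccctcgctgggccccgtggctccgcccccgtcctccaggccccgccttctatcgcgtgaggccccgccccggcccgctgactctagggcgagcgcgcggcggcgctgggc

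RefSeq gave a promoter for 57 members, and their median GC content was 65.2% against 52.0% over all 27025 promoters. TAATCC on either strand lay in the 250 bases before the start of 2 of the 57 members, Robo3 and Robo4, or 3.51%, against 6.38% of all promoters. In Robo3 its first base lies 113 bases before the RefSeq start. TGACGTCA, the cAMP response element, and TGANTCA, the AP-1 site, were in none of the members and in 1.62% and 6.87% of all promoters. GCGTGGGCG, the Egr site, was in Efna3 and Plxna2, or 3.51% of the members, and in 0.540% of all promoters. The motifs were searched on both strands and do not overlap each other in these windows. Of the 12 promoters of members that passed a test below, the one of Robo3 held a match to any of the 4 motifs. These matches describe letters in a short window and say nothing of binding.

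Levels between genes were compared as CPM per kb of transcript, a scale on which 67 members had a value (Sema4c had no length). The median member stood at 5.62 CPM per kb, 23 members were above 10 and 5 were below 1. Epha4, a receptor that binds both A and B ephrins, stood highest at 142.8 CPM per kb, 4.53 times the next member. Sema7a, a membrane-anchored semaphorin that binds Plxnc1 and integrins, followed at 31.5, Robo2, a Slit receptor, at 31.4, and Epha5, an ephrin-A receptor, at 30.3 CPM per kb. The order of these 3 differed between the groups. In wild-type P30 Sema7a (37.9 and 37.9) was above Robo2 (30.6 and 31.4), and Robo2 above Epha5 (28.02 and 28.45). In wild-type P100 Epha5 (34.1 and 32.2) was above Sema7a (29.0 and 28.1) and Robo2 (30.2 and 27.7), which overlapped. In heterozygous P30 Robo2 (35.1 and 33.3) was above Epha5 (30.2 and 28.7) and Sema7a (26.5 and 29.6), which overlapped. Sema3b and Ephb4 were at the low end, at 0.560 and 0.709 CPM per kb.

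Epha4 alone made up 19.6% to 23.7% of the summed CPM of the members and 68.5% to 72.9% of that of the EphA receptors. Among the other families the highest member per kb was Plxna2 for plexins (22.3), Nrp1 for neuropilins (11.4), Efna3 for ephrin-As (13.6) and Efnb2 for ephrin-Bs (14.7). Ephb6, an EphB receptor without kinase activity, led the EphB receptors at 28.3, and Slit2 led the Slits at 15.4 CPM per kb. Ntn4 led the netrins at 4.69, Ntng2, a lipid-anchored netrin-G, its pair at 5.62, and Unc5d the Unc5 receptors at 21.1 CPM per kb. Dcc, the attractive netrin receptor, stood at 3.26 CPM per kb. The plot of levels per kb shows that receptors make up 15 of the 23 members above 10 CPM per kb, and that levels within the larger families spread widely. Efna3 and Ntng2 share exon bases with an overlapping gene, and reads of the shared bases cannot be told apart.

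**Figure D1:**
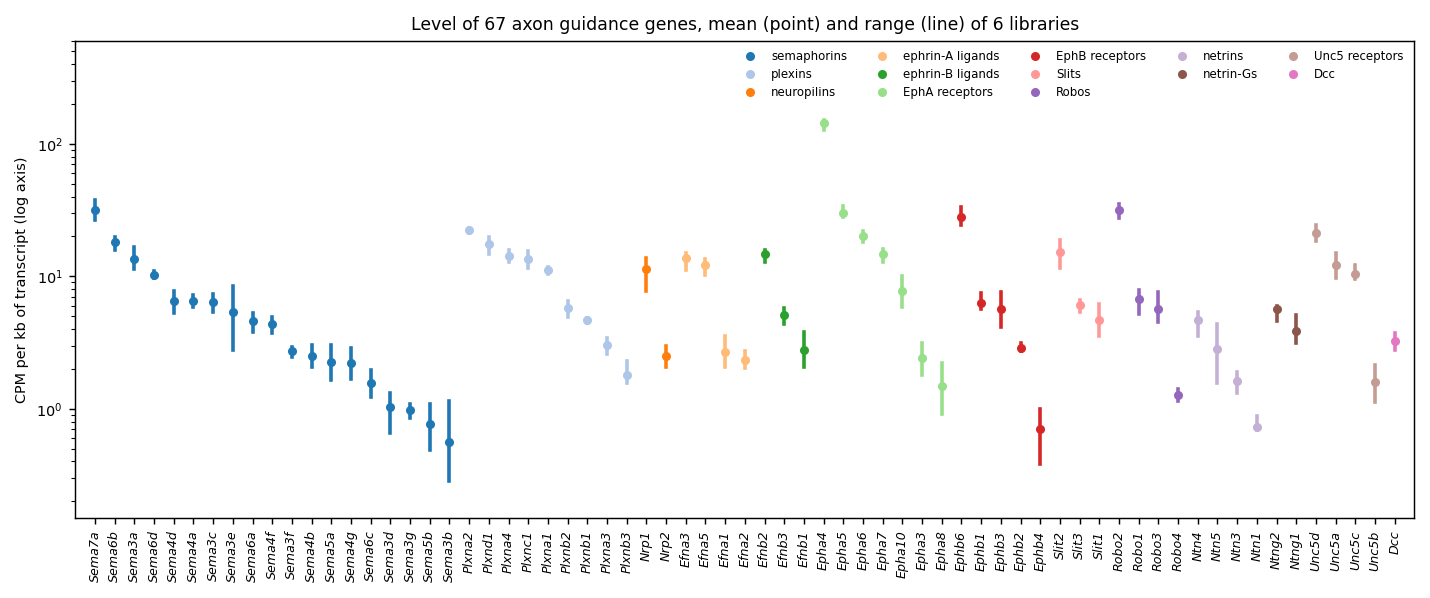
Level of 67 guidance genes in CPM per kb of transcript (log axis), grouped by family and ordered within it, with the mean of 6 libraries as a point and their range as a line. Epha4 stands apart at 142.8 CPM per kb, and Sema3b is lowest at 0.560.

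The first comparison asks how expression in layer IV differs between P100 and P30 in wild-type mice. With edgeR's quasi-likelihood test and Benjamini-Hochberg adjustment over 15841 genes, 9 of 68 members were lower at P100 (adjusted p under 0.05) and 0 were higher. Over all genes tested, 4.54% were lower and 3.0% higher, so the lower share of the members, 13.2%, was above the background and the higher share, 0%, below it. The members were chosen with earlier results of these data known, and the background was not matched to them in level. At an unadjusted p under 0.05, 26 members differed (38.2%), against 22.7% of all genes. The 9 were Slit2, Sema3d, Sema4c, Sema5a, Sema6a, Sema7a, Ephb3, Robo3 and Unc5b: 6 of 36 ligands and 3 of 32 receptors. The median log2 difference of the members was -0.09 against 0.00 over all genes, and 46 of 68 were negative. The 2 groups did not overlap for 37 of 68 members, 27 of them lower at P100. Across the 15841 genes tested the same held for 8105 (51.2%), 4073 of them lower.

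Slit2 is a secreted repellent of Robo1 and Robo2. It lies at chr5:47983154-48305511 on the plus strand (GENCODE vM21, GRCm38). It stood at 132 and 131 CPM in wild-type P30, 90.6 and 90.4 CPM in wild-type P100, and 146 and 126 CPM in heterozygous P30. Both P100 libraries were below the other 4, which overlapped. Slit2 was 1.45-fold lower at P100 (log2 difference -0.54 ± 0.08 SE, edgeR adjusted p = 0.00153). It kept the call under all 14 alternatives, where the log2 difference stayed between -0.55 and -0.53. Its relatives gave no call: Slit3 differed by -0.02 ± 0.10 and Slit1 by 0.14 ± 0.15 on the log2 scale. Slit1 and Slit3 are also secreted Robo ligands. The summed CPM of the 3 Slits was 191 and 194 at P30 and 147 and 161 at P100.

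Of the 20 semaphorins 5 were lower at P100 and 0 higher. Their summed CPM was 630 and 621 at P30 and 536 and 524 at P100. Sema7a (chr9:57940113-57962865, plus strand) stood at 125 and 125 CPM in wild-type P30, 95.5 and 92.7 CPM in wild-type P100, and 87.3 and 97.7 CPM in heterozygous P30. The P30 wild-type libraries were above the other 4. Sema7a was 1.33-fold lower at P100 (log2 difference -0.41 ± 0.08, edgeR adjusted p = 0.00700). Plxnc1, its plexin receptor, stood at 84.6 and 96.9 CPM at P30 and 114 and 106 CPM at P100. Those groups did not overlap, in the opposite direction to Sema7a, and the difference of 0.27 ± 0.08 missed the threshold (edgeR adjusted p = 0.0638).

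Sema3d, a secreted class 3 semaphorin, stood at 7.21 and 8.27 CPM in wild-type P30, 4.49 and 4.14 CPM in wild-type P100, and 8.18 and 6.84 CPM in heterozygous P30. The P100 libraries were again the low ones. It was 1.8-fold lower at P100 (log2 difference -0.85 ± 0.20, edgeR adjusted p = 0.0195). Sema4c, a transmembrane ligand of Plxnb2, stood at 17.2 and 15.2 CPM at P30 and 11 and 10.6 CPM at P100, and was 1.5-fold lower (-0.58 ± 0.15, edgeR adjusted p = 0.0276). Sema5a, a transmembrane semaphorin with thrombospondin repeats, stood at 32.7 and 26.6 CPM at P30 and 23.3 and 17.7 CPM at P100 (-0.52 ± 0.14, edgeR adjusted p = 0.0413). Its groups were separate but its replicates were the most scattered of the 9. Sema6a, a transmembrane ligand of Plxna2 and Plxna4, stood at 34.1 and 34.8 CPM at P30 and 25.9 and 27.1 CPM at P100 (-0.38 ± 0.11, edgeR adjusted p = 0.0476). Of the semaphorins without a call, Sema5b differed by -0.84 ± 0.25 (edgeR adjusted p = 0.0588) and Sema4d by -0.36 ± 0.12 (0.0792).

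Among receptors, Ephb3, an ephrin-B receptor, stood at 25.7 and 32.0 CPM in wild-type P30, 18.2 and 17.3 CPM in wild-type P100, and 21.1 and 26.9 CPM in heterozygous P30. The P100 libraries were the lowest of the 6. Ephb3 was 1.63-fold lower at P100 (-0.71 ± 0.14, edgeR adjusted p = 0.0102). All 5 EphB receptors had a negative difference, from -0.73 for Ephb4 to -0.02 for Ephb2, with 1 call. Across the 15841 genes tested 7895 were negative, and 4.54% were called lower. The summed CPM of the EphB receptors was 203 and 208 at P30 and 170 and 169 at P100. Robo3, a divergent Robo known for its part in midline crossing, stood at 33.1 and 36.5 CPM at P30 and 21.6 and 24.9 CPM at P100 (1.5-fold lower, -0.59 ± 0.11, edgeR adjusted p = 0.00779). Unc5b, a repulsive netrin receptor also found in blood vessels, stood at 12.6 and 12.4 CPM at P30 and 8.83 and 7.13 CPM at P100 (1.56-fold lower, -0.64 ± 0.17, edgeR adjusted p = 0.0341). Neither pair of groups overlapped. The plexins and EphA receptors gave 0 calls: the plexins summed to 863 and 866 CPM at P30 and 877 and 864 CPM at P100, and the EphA receptors to 1172 and 1274 CPM and then 1281 and 1337 CPM.

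**Figure D2:**
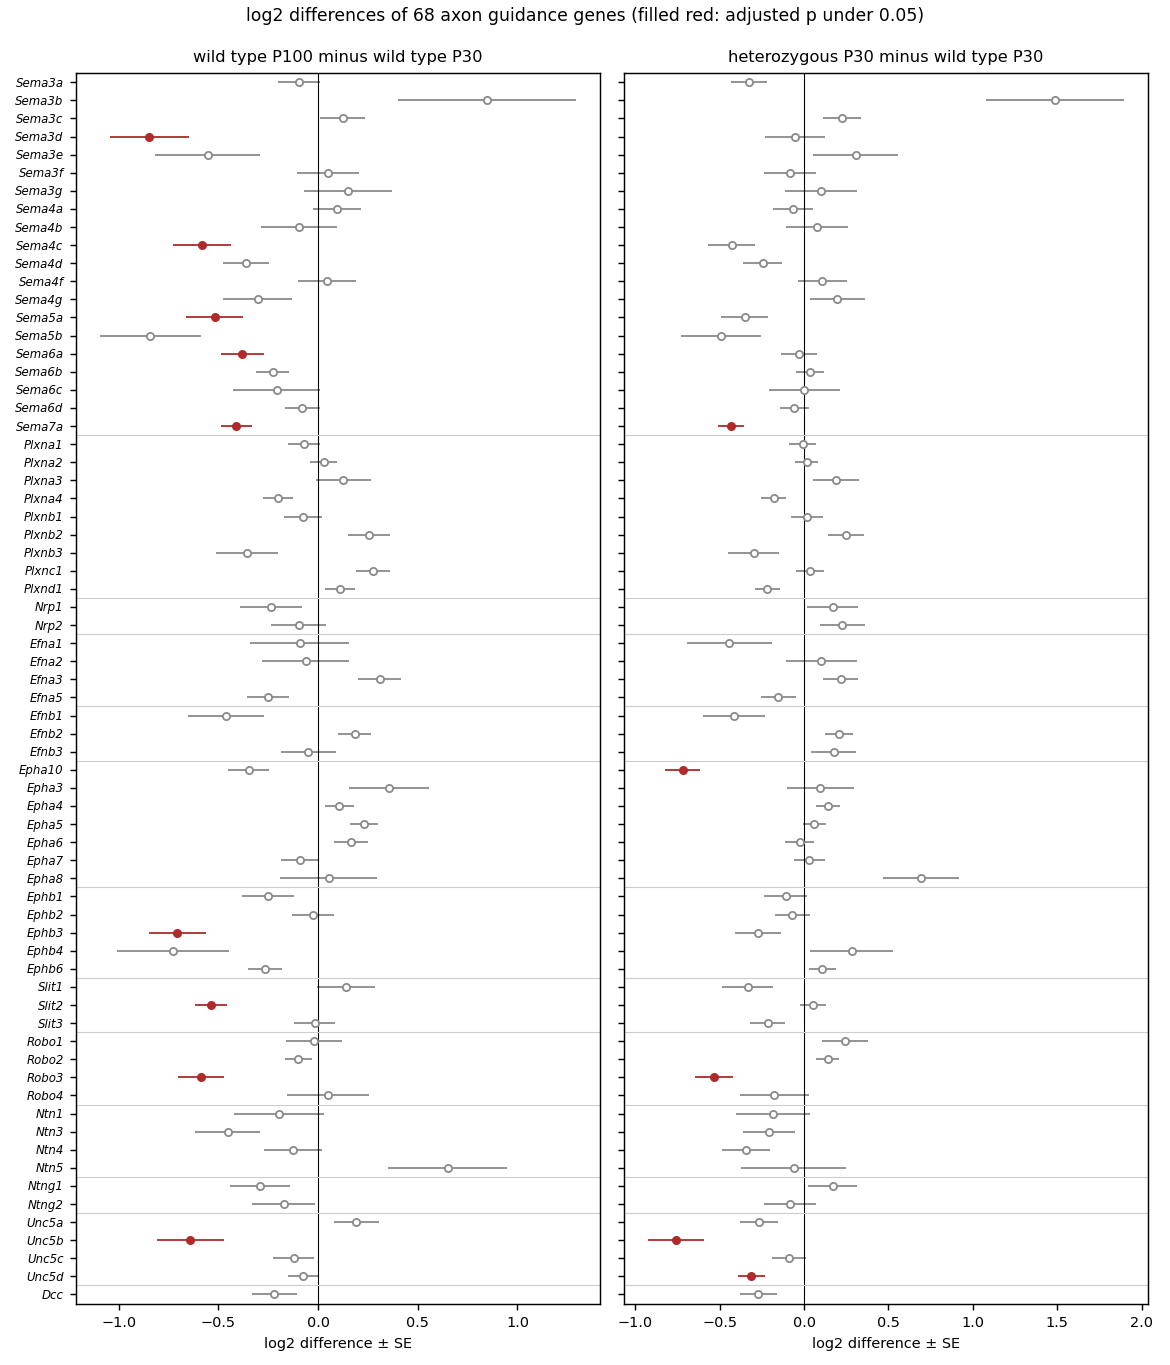
log2 difference ± SE of each of the 68 members, by family, for wild-type P100 minus wild-type P30 (left) and heterozygous P30 minus wild-type P30 (right). Filled red points passed an adjusted p of 0.05: 9 on the left and 5 on the right, all of them below 0.

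The age calls were sensitive to leaving out 1 library. Calls over all genes also fell in each of these fits, so a fall is not particular to the members. The count fell from 9 to 5 without wild-type P30 replicate 1, to 3 without wild-type P30 replicate 2, to 3 without wild-type P100 replicate 1 and to 2 without wild-type P100 replicate 2, and was 8 without either heterozygous library. Only Slit2 was called in each of these 6 fits, with a highest edgeR adjusted p of 0.0281. The calls of Unc5b and Sema4c were lost without any 1 of the 4 wild-type libraries (up to 0.218 and 0.147), and that of Sema6a without any 1 of the 6 (up to 0.184). Sema3d (up to 0.122) and Ephb3 (up to 0.0877) lost theirs without wild-type P30 replicate 2 or either P100 library. Sema5a lost it without wild-type P30 replicate 1 or P100 replicate 2 (up to 0.286), Robo3 without P30 replicate 2 or P100 replicate 1 (up to 0.0746), and Sema7a without P100 replicate 2 (0.0781). None of the 9 changed direction under any of the 14 alternatives. DESeq2 called 4 of the 9: Ephb3, Robo3, Sema7a and Slit2. In the authors' deposited table for this comparison, 16 member transcripts from 5 genes were lower (Epha10, Ephb3, Robo3, Sema7a and Slit2) and 0 higher. That count takes any transcript of a gene. For the Epha10 transcript read here the authors' adjusted p was 0.281, so their Epha10 call came from another transcript.

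In bulk tissue fewer cells of a type and less RNA per cell cannot be told apart. Of 12 oligodendrocyte markers, 10 were lower at P100, with a median log2 difference of -0.99, and their summed CPM ran from 3284 to 3427 at P30 and from 1614 to 1908 at P100. Of 8 oligodendrocyte precursor markers 6 were lower, and their sum ran from 316 to 320 and from 188 to 219 CPM. The summed endothelial and mural markers ran from 482 to 502 CPM at P30 and from 402 to 418 at P100, with 3 of 10 lower. None of these lists had a defining marker at 0. All 12 activity-regulated genes were lower at P100, with a median of -2.10. The share of all genes tested that was lower at P100 was 4.54%. The part of these lists in the lower Slit2, semaphorin, Ephb3, Robo3 and Unc5b was not tested.

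**Figure D3:**
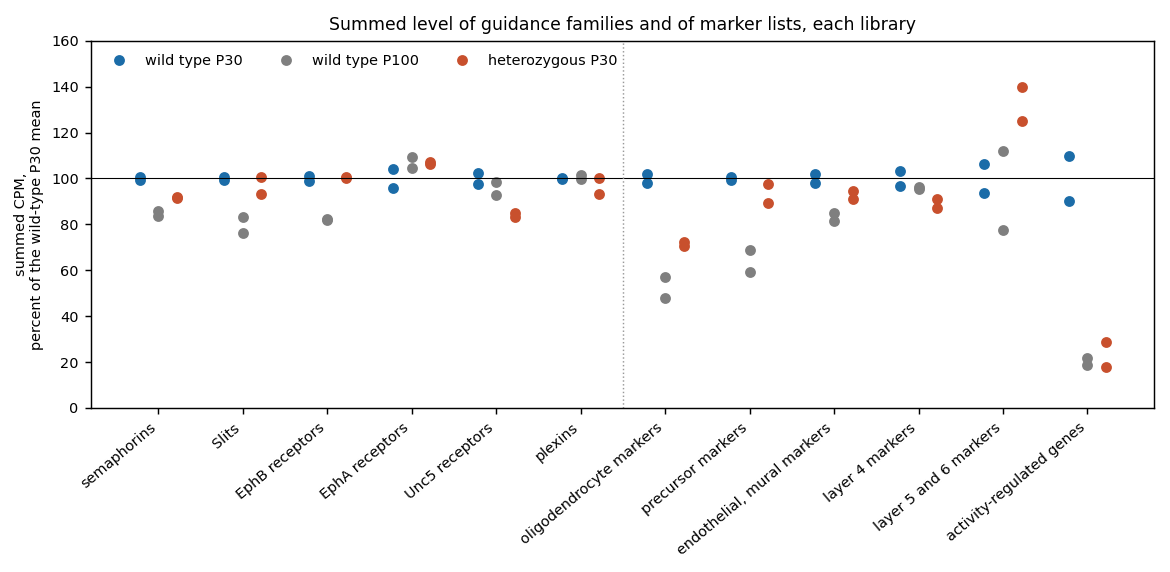
Summed CPM of 6 guidance families (left of the dotted line) and of marker lists (right), each library as a percent of the wild-type P30 mean. At P100 the semaphorins were at 83.7% and 85.7%, the EphB receptors at 82.1% and 82.5% and the oligodendrocyte markers at 48.1% and 56.9%, and the activity-regulated genes were below 30% in wild-type P100 and heterozygous P30.

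The second comparison asks how heterozygous P30 tissue differs from wild-type P30 tissue. It uses the same wild-type P30 libraries as the age comparison, so the 2 sets of differences are not independent. By edgeR's quasi-likelihood test 5 of 68 members were lower in heterozygotes and 0 higher, or 7.35% and 0% against 2.32% and 0.903% of all genes. At an unadjusted p under 0.05, 20 members differed (29.4%), against 17.3% of all genes. The 5 were Epha10, Sema7a, Robo3, Unc5b and Unc5d, 1 ligand and 4 receptors. The median log2 difference was -0.04 against 0.00 over all genes, and 37 of 68 were negative. The groups did not overlap for 37 of 68 members, 24 of them lower. Across the 15841 genes tested the same held for 7750 (48.9%), 3864 of them lower.

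Epha10, an Eph receptor without kinase activity (chr4:124885799-124917800, plus strand), stood at 43.4 and 47.1 CPM in wild-type P30, 33.8 and 37.5 CPM in wild-type P100, and 27.2 and 27.8 CPM in heterozygous P30. The 3 groups were separate, with wild-type P30 highest and heterozygous P30 lowest. Epha10 was 1.65-fold lower in heterozygotes (-0.72 ± 0.10, edgeR adjusted p = 0.00150) and kept the call under all 14 alternatives, from -0.83 to -0.66. Its age difference of -0.35 ± 0.10 was just outside the threshold (edgeR adjusted p = 0.0518). The other 6 EphA receptors gave no call for genotype, and Epha8, the largest of them, differed by 0.69 ± 0.22 (edgeR adjusted p = 0.117). Epha4 stood at 808 and 896 CPM in wild-type P30 and at 934 and 946 CPM in heterozygotes, groups that did not overlap, with a difference of 0.14 ± 0.07 (edgeR adjusted p = 0.332).

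Sema7a, at the levels given above, was 1.35-fold lower in heterozygotes (-0.43 ± 0.08, edgeR adjusted p = 0.00772). Heterozygous Robo3 stood at 23.1 and 25 CPM (1.45-fold lower, -0.54 ± 0.11, edgeR adjusted p = 0.0188). Unc5b stood at 6.64 and 8.14 CPM (1.69-fold lower, -0.76 ± 0.17, edgeR adjusted p = 0.0238). For all 3 genes both wild-type P30 libraries were above both heterozygous P30 and both wild-type P100 libraries. Unc5d, an Unc5 family receptor of upper-layer and layer 4 neurons, stood at 196 and 227 CPM in wild-type P30, 194 and 209 CPM in wild-type P100, and 169 and 172 CPM in heterozygotes. Its heterozygous libraries were the lowest of the 6, and it was 1.24-fold lower (-0.31 ± 0.08, edgeR adjusted p = 0.0466). All 9 members of the netrin, Unc5 and Dcc group had a negative genotype difference, from -0.76 to -0.06, with 2 calls. Across the 15841 genes tested 7814 were negative, and 2.32% were called lower. Several of the 9 were small beside their SE, such as Ntn5 (-0.06 ± 0.31) and Unc5c (-0.09 ± 0.10). The netrin-Gs are not in that group: Ntng1 differed by 0.17 ± 0.14 and Ntng2 by -0.08 ± 0.15. Dcc stood at 38.4 and 36.8 CPM in wild-type P30 and 28.6 and 33.7 CPM in heterozygotes (-0.27 ± 0.11, edgeR adjusted p = 0.220).

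**Figure D4:**
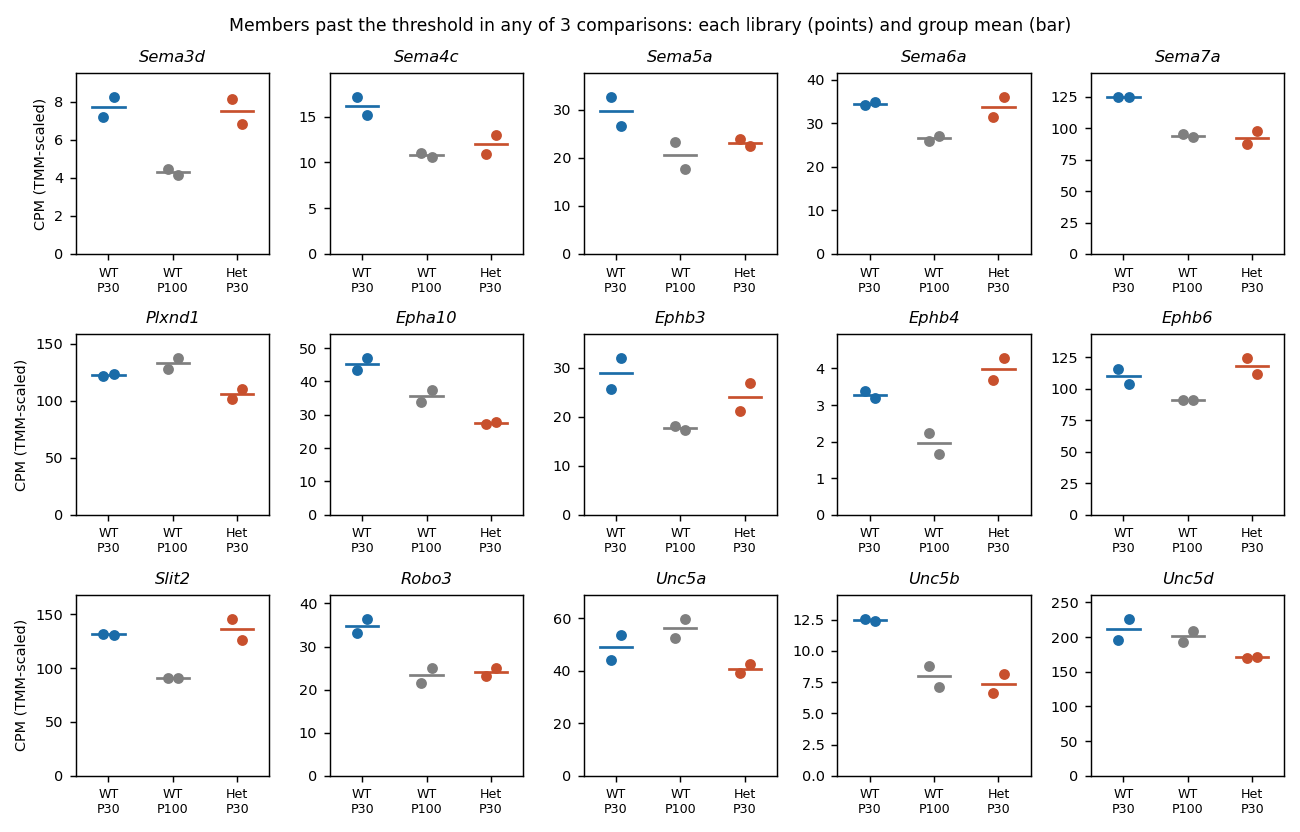
CPM of the 15 members that passed in any of the 3 comparisons, each library as a point and the group mean as a bar, with axes from 0. Slit2 is low in both wild-type P100 libraries (90.6 and 90.4 CPM), and Epha10 is lowest in the heterozygous ones (27.2 and 27.8 CPM).

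Without wild-type P30 replicate 2 the 1 genotype call was Epha10. Without heterozygous replicate 1, Epha10 was the 1 lower member, and Sema3b was called higher. Without heterozygous replicate 2, the library with choroid plexus markers, 3 were lower: Epha10, Sema7a and Unc5b. Leaving out either wild-type P100 library cost the call of Unc5d, as did leaving out wild-type P30 replicate 2 or either heterozygous library (up to 0.309). Robo3 lost its call without wild-type P30 replicate 2 or either heterozygous library (highest edgeR adjusted p 0.177), and Sema7a without wild-type P30 replicate 2 or heterozygous replicate 1 (0.135). Unc5b lost it without either wild-type P30 library or heterozygous replicate 1 (0.231). Over all genes, calls of lower expression also fell on leaving out 1 library, except without wild-type P30 replicate 1. The authors' deposited table for this comparison, which counts any transcript of a gene, had 4 member transcripts from 3 genes lower (Epha10, Sema7a and Unc5b) and 0 higher.

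Marker lists also differed between the genotypes, in both directions. Of 12 oligodendrocyte markers 10 were lower in heterozygotes, and their summed CPM was 2370 and 2431 against 3284 and 3427 in wild-type P30. The 7 layer 4 markers summed to 985 and 1032 CPM against 1095 and 1173, with 2 lower. The 9 layer 5 and 6 markers tested were all positive, with 1 call and a median of 0.50, and the list summed to 219 and 196 CPM against 167 and 147. Nxph4 of that list was near 0 in every library. All 12 activity-regulated genes were lower, with a median of -1.97. The shares of all genes tested were 2.32% lower and 0.903% higher, and 8026 of 15841 had a positive difference. The part of these lists in the lower Epha10, Sema7a, Robo3, Unc5b and Unc5d was not tested.

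The third comparison sets heterozygous P30 against wild-type P100. It leaves out the wild-type P30 libraries, and in it age, genotype and sex differ together. Its log2 difference is also the test of whether the genotype and age differences of a gene are unequal. By edgeR's quasi-likelihood test 4 members were higher in heterozygous P30 (Slit2, Sema3d, Ephb6 and Ephb4) and 2 lower (Unc5a and Plxnd1). These are 5.88% and 2.94% of the members, against 2.44% and 2.66% of all genes. The groups did not overlap for 37 of 68 members, 20 of them higher. Across the 15841 genes tested the same held for 7996 (50.5%), 4028 of them higher. The median log2 difference of the members was 0.06, against 0.00 over all genes. At an unadjusted p under 0.05, 24 members differed (35.3%), against 19.4% of all genes.

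Slit2 was 1.5-fold higher in heterozygous P30 than in wild-type P100 (0.59 ± 0.08, edgeR adjusted p = 0.000959), a call kept under all 14 alternatives. Its genotype difference at P30 was 0.05 ± 0.08. Sema3d was 1.73-fold higher (0.79 ± 0.19, edgeR adjusted p = 0.0303) with a genotype difference of -0.05 ± 0.18. Ephb6 stood at 116 and 104 CPM in wild-type P30, 91.2 and 91.0 CPM in wild-type P100, and 124 and 112 CPM in heterozygous P30 (0.38 ± 0.08, edgeR adjusted p = 0.0183). Ephb4, an ephrin-B2 receptor known from veins, stood at 2.24 and 1.67 CPM in wild-type P100 and 3.69 and 4.30 CPM in heterozygous P30 (1.01 ± 0.27, edgeR adjusted p = 0.0432). In all 4 genes the P100 libraries were the lowest of the 6.

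Unc5a, a netrin receptor, stood at 44.1 and 53.8 CPM in wild-type P30, 52.4 and 59.9 CPM in wild-type P100, and 39.0 and 42.7 CPM in heterozygous P30 (-0.46 ± 0.11, edgeR adjusted p = 0.0316). Plxnd1, the plexin that binds Sema3e directly, stood at 122 and 124 CPM in wild-type P30, 128 and 138 CPM in wild-type P100, and 101 and 110 CPM in heterozygous P30 (-0.33 ± 0.08, edgeR adjusted p = 0.0222). Their heterozygous libraries were the lowest of the 6. Sema7a, Robo3 and Unc5b differed here by -0.02 ± 0.08, 0.05 ± 0.12 and -0.12 ± 0.18, so no inequality of their age and genotype differences was detected at this depth and number of libraries.

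Leaving out 1 library moved these counts as well, and over all genes calls fell without any 1 of the 4 libraries compared. Slit2 was the 1 member of the 6 that kept its call without wild-type P100 replicate 1, without P100 replicate 2 and without heterozygous replicate 1. Without heterozygous replicate 2, Slit2, Ephb6 and Sema3d were still called. Ephb4 lost its call without any 1 of the 6 libraries (edgeR adjusted p up to 0.236). Unc5a (up to 0.221) and Plxnd1 (up to 0.251) lost theirs without any 1 of the 4 libraries compared, and Ephb6 (up to 0.214) and Sema3d (up to 0.237) without either P100 library or heterozygous replicate 1. Of 7 layer 4 markers 4 were lower in heterozygous P30 than in wild-type P100, and 3 of 9 layer 5 and 6 markers were higher, and the part of either in the lower Unc5a and Plxnd1 was not tested. In the same comparison 7 of 12 oligodendrocyte markers, 4 of 8 precursor markers and 5 of 12 activity-regulated genes were higher. The shares of all genes tested were 2.44% higher and 2.66% lower. The oligodendrocyte markers summed to 2370 and 2431 CPM in heterozygous P30 and 1908 and 1614 CPM in wild-type P100. The part of these lists in the higher Slit2, Sema3d, Ephb6 and Ephb4 was not tested.

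Sema3a lies at chr5:13399309-13602565 on the plus strand and ranked 16 of 67 at 13.6 CPM per kb, below Sema7a and Sema6b among the semaphorins. It stood at 78.1 and 98.2 CPM in wild-type P30, 78.7 and 87.1 CPM in wild-type P100, and 67.4 and 73.6 CPM in heterozygous P30. The wild-type groups overlapped, and both heterozygous libraries were below all 4 wild-type ones. Sema3a differed by -0.09 ± 0.11 between the ages (edgeR adjusted p = 0.649) and by -0.33 ± 0.11 between the genotypes at P30 (edgeR adjusted p = 0.118), neither past the threshold. Heterozygous P30 and wild-type P100 differed by -0.23 ± 0.11 (edgeR adjusted p = 0.249). The genotype difference depended on single libraries. It passed the threshold without wild-type P30 replicate 1, the lower of that pair, at -0.48 (edgeR adjusted p = 0.0283). It also passed with no filter on low counts (0.02365). Without wild-type P30 replicate 2, the higher of the pair, it was -0.15 (edgeR adjusted p = 0.595), and without heterozygous replicate 1 it was -0.26 (0.551). Without wild-type P30 replicate 2 the age difference turned from negative to 0.086 (edgeR adjusted p = 0.717).

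In the main fit the receptors of Sema3a gave no call in any of the 3 comparisons. Nrp1, its binding receptor, stood at 44.5 and 38.5 CPM in wild-type P30, 41.9 and 28.0 CPM in wild-type P100, and 49.9 and 43.3 CPM in heterozygous P30. Nrp2, which prefers other class 3 semaphorins, stood at 15.3 and 17.2, 13.9 and 16.7, and 19.97 and 18.2 CPM in the same order. For both genes the 2 ages overlapped, and for Nrp2 both heterozygous libraries were above the others. Heterozygous P30 was above wild-type P100 without overlap for both. The differences were 0.41 ± 0.15 for Nrp1 and 0.32 ± 0.13 for Nrp2 (edgeR adjusted p = 0.153 and 0.198). That of Nrp1 passed with no filter on low counts and with a replicate block. The signalling plexins Plxna1 to Plxna4 had age differences from -0.20 (Plxna4) to 0.13 (Plxna3) and genotype differences from -0.18 (Plxna4) to 0.19 (Plxna3). Plxna4, a main partner of Nrp1 in sensory neurons, stood at 202 and 194 CPM in wild-type P30, 180 and 165 CPM in wild-type P100, and 166 and 183 CPM in heterozygous P30. Both wild-type P30 libraries were above the other 4 (age -0.20 ± 0.08, edgeR adjusted p = 0.122). Plxna2 ran from 235 to 257 CPM over all 6.

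**Figure D5:**
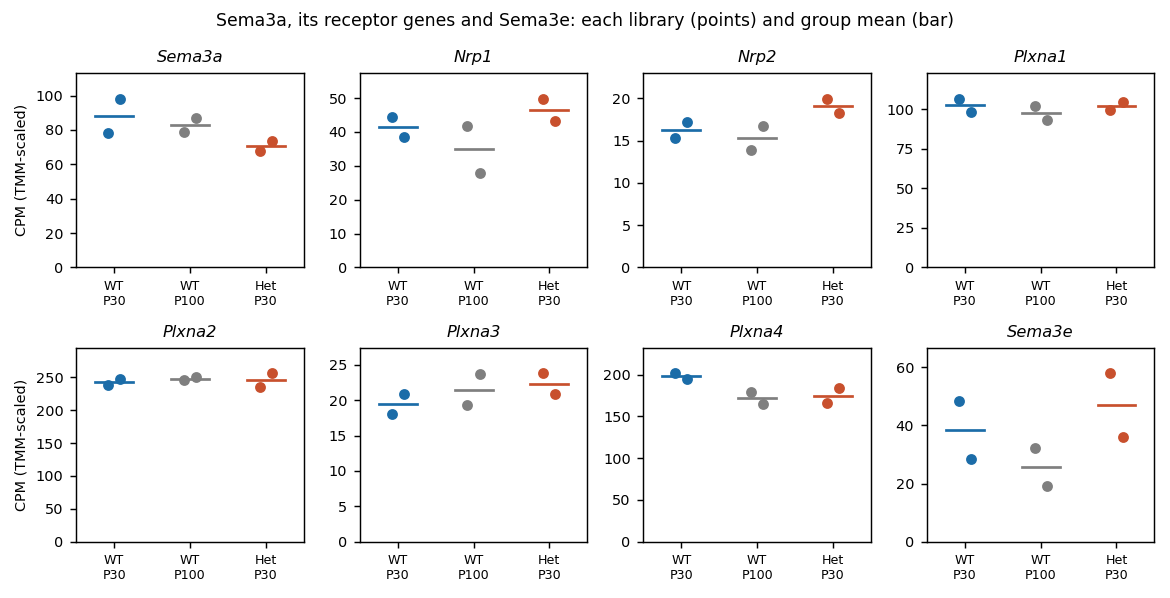
CPM of Sema3a, its neuropilin and class A plexin receptor genes, and Sema3e, each library as a point and the group mean as a bar, with axes from 0. Sema3a is at 67.4 and 73.6 CPM in heterozygous P30 and no wild-type library lies under 78.1 CPM, and Sema3e differs between replicates within each group.

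Sema3a binds the nets through their sulfated chains, and a list of 18 genes of the nets and related matrix was described beside it. Not all of the 18 are particular to nets. At P100, 7 of the 18 were lower and 1 higher, with a median log2 difference of -0.34. These are 38.9% and 5.56% of the list, against 4.54% and 3.0% of all genes. The 5 lower genes with the smallest p included the lecticans Bcan (-0.43 ± 0.08) and Ncan (-0.45 ± 0.09), the sulfotransferase gene Chst3 (-1.35 ± 0.28), Tnc (-1.63 ± 0.35) and the link protein gene Hapln1 (-0.59 ± 0.13). Hapln2, another link protein gene, was the higher one (0.91 ± 0.23). In heterozygotes at P30, Tnr, the tenascin of the nets, was lower (-0.33 ± 0.08, edgeR adjusted p = 0.0469) and the other 17 gave no call. That 1 gene is 5.56% of the list, against 2.32% of all genes. Heterozygous P30 against wild-type P100 gave 4 higher (Vcan, Hapln1, Ncan and Tnc) and 2 lower (Hapln2 and Hapln4). These are 22.2% and 11.1% of the list, against 2.44% and 2.66% of all genes.

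Sema3e, the ligand of Plxnd1, was uneven between replicates: 48.4 and 28.5 CPM in wild-type P30, 32.2 and 19.2 CPM in wild-type P100, and 58.0 and 36.1 CPM in heterozygous P30. The first replicate was the higher one in each group, and the summed layer 5 and 6 markers were also higher in it, at 167, 176 and 219 CPM against 147, 122 and 196 CPM. Sema3e gave no call (age -0.55 ± 0.27, edgeR adjusted p = 0.234). Heterozygous P30 was above wild-type P100 without overlap, by 0.86 ± 0.26 (edgeR adjusted p = 0.0764). That difference passed with only the 4 libraries compared (edgeR adjusted p = 0.0375), with no filter on low counts and with a replicate block. It missed with RLE scaling, the other filter, DESeq2, limma-voom and counts summed over transcripts. Leaving out 1 library, the difference ran from 0.48 without heterozygous replicate 1 to 1.30 without wild-type P100 replicate 1. The part of those markers was not tested. Over the 68 members the median of the largest ratio between duplicates was 1.19, and 63 stayed under 1.5. The exceptions were Sema3b (2.08), Ntn5 (1.95), Sema3e (1.70), Epha8 (1.62) and Efna1 (1.52). Sema3b, a secreted class 3 semaphorin, stood at 1.095 and 0.973 CPM in wild-type P30 and 1.88 and 3.91 CPM in heterozygotes. The highest value is in the library with choroid plexus markers, and the other heterozygous library is also above wild-type P30. Its genotype difference of 1.49 ± 0.41 missed the threshold (edgeR adjusted p = 0.0667).

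The wider guidance machinery was read from 2 further lists. Of 32 other guidance and adhesion genes tested, 5 were lower at P100 (Nfasc, Met, L1cam, Rtn4rl2 and Adam17) and Flrt3 was higher. These are 15.6% and 3.12% of that list, against 4.54% and 3.0% of all genes. Flrt3, a surface protein that binds Unc5 receptors, stood at 56.3 and 50.3 CPM in wild-type P30, 98.4 and 104 CPM in wild-type P100, and 84.2 and 84.9 CPM in heterozygous P30. Both other groups were above wild-type P30, by 0.93 ± 0.09 with age and 0.67 ± 0.09 with genotype (edgeR adjusted p = 2.98e-05 and 0.000672). In heterozygotes Met was also higher and Nfasc lower. With Flrt3, 6.25% of that list was higher and 3.12% lower in heterozygotes, against 0.903% and 2.32% of all genes. Met, the receptor of hepatocyte growth factor, stood at 29.0 and 21.6, 12.8 and 9.24, and 59.9 and 40.8 CPM in the same order, so the 3 groups were separate.

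Of 54 signalling genes that act below these receptors, 5 were lower at P100 (Fyn, Crmp1, Mical2, Dpysl3 and Rnd1) and Vav3 was higher. These are 9.26% and 1.85% of the list, against 4.54% and 3.0% of all genes. Crmp1 and Dpysl3 encode collapsin response mediators, which act in Sema3a signalling, Mical2 an actin oxidase of the Mical family, and Fyn a kinase downstream of plexins and Eph receptors. In heterozygotes Mical2 alone passed, as a lower gene, or 1.85% of the list against 2.32% of all genes. Mical2 stood at 422 and 440 CPM in wild-type P30, 344 and 324 CPM in wild-type P100, and 259 and 302 CPM in heterozygous P30 (-0.62 ± 0.08, edgeR adjusted p = 0.000581). Its 3 groups did not overlap. Heterozygous P30 against wild-type P100 gave 3 higher (Dpysl3, Dpysl5 and Crmp1) and 2 lower (Vav3 and Sipa1l1). These are 5.56% and 3.7% of the list, against 2.44% and 2.66% of all genes.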

How the data were processed

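RNA-seq libraries were described from the authors' deposited tables. Per the file headers, one file per library gives raw counts per Ensembl transcript with gene names; per the submitters' processing notes, Bowtie, HTSeq, DESeq 1.8.3 and mm10 were used, with no roles or settings. The annotation release and strand setting are not given in the sources used here, so a gene and an overlapping antisense gene cannot be told apart. Efna3, Ntn5, Ntng2 and Plxna1 share at least 10% of exon bases with another gene. The authors' deposited comparison tables give per transcript a mean signal (counts divided by size factors), the ratio or fold of 2 group means, its log2 value and p-values. Isoforms of a gene hold many of the same reads, so each gene was taken as its transcript with the highest total. Transcripts paired with no gene held 13.96% of counts and were left out.

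Genes passed filterByExpr (minimum count 10, total 15) and were fitted with edgeR 4.0.16 (R 4.3.3), TMM scaling and the quasi-likelihood test over all 3 groups (3 residual degrees of freedom), with Benjamini-Hochberg adjustment and a threshold of 0.05. The code was tested on simulated data. Alternatives were RLE scaling, other filters on low counts, DESeq2 1.42.0, limma-voom 3.58.1, a replicate block, counts summed over transcripts, only the 4 libraries compared, and leaving out each library. Replicates of a group differed by more than counting noise. Named members were those called, Sema3a with its receptors, and the highest per kb of each family; for other lists, up to 5 called genes per comparison by p. Other genes named were singled out after their values were seen. The members and lists were chosen with earlier results of these data known.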

Additional observations from a re-analysis of the deposited data

How the results depend on the processing

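For 29 named members in 3 comparisons, 1086 of 1216 alternative values kept direction and side of the threshold, 79 lost a call and 20 gained one. The other 31 changed sign, and 0 of these were called in either fit. Leaving out 1 library, the log2 differences that crossed 0 ranged, for age, as Nrp1 -0.57 to 0.019, Nrp2 -0.23 to 0.034, Plxna2 -0.0012 to 0.058, Plxna3 -0.022 to 0.27, Sema3a -0.25 to 0.086 and Unc5d -0.17 to 0.035. For genotype they ranged as Plxna1 -0.066 to 0.048, Plxna2 -0.049 to 0.078, Sema3d -0.19 to 0.072, Sema6a -0.13 to 0.066 and Slit2 -0.056 to 0.15. For heterozygous P30 against wild-type P100 they ranged as Dcc -0.17 to 0.059, Epha4 -0.028 to 0.10, Ntng2 -0.064 to 0.28, Plxna1 -0.0006 to 0.13, Plxna2 -0.075 to 0.050, Plxna3 -0.083 to 0.21, Plxna4 -0.050 to 0.090, Robo3 -0.048 to 0.15, Sema5a -0.012 to 0.39, Sema7a -0.11 to 0.054 and Unc5b -0.27 to 0.053. With counts summed over transcripts Efnb2 in the last comparison was -0.026. With no filter on low counts 1 member was higher and 14 lower at P100, 2 were higher in heterozygotes, and 12 were higher and 5 lower in heterozygous P30 against wild-type P100. DESeq2 gave 4 lower at P100 and 2 higher in heterozygous P30 against wild-type P100. Counts summed over transcripts gave 1 higher and 3 lower in heterozygotes, and 0 lower in heterozygous P30 against wild-type P100. The cause of these moves was not tested. Leaving out 1 library at a time, members lower at P100 ranged from 2 to 8 with 0 higher, members lower in heterozygotes from 1 to 5 with 0 to 1 higher, and in heterozygous P30 against wild-type P100 from 1 to 5 were higher and 0 to 3 lower.

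Between pairs of groups, same-numbered deviations had correlations of -0.004, 0.1 and 0. Such values cannot decide whether some genes share a replicate difference, and Sema3e was higher in the first replicate of each group. Adding a replicate block raised the genome-wide calls in each comparison. For age it gave 526 higher and 794 lower, against 475 and 719 in the main fit. For genotype the counts were 192 and 450 against 143 and 368. For heterozygous P30 against wild-type P100 they were 479 and 509 against 386 and 422. The cause of this rise was not tested. With a replicate block 13 members were lower at P100 and 0 higher, 6 were lower in heterozygotes, Sema3a among them (adjusted p = 0.04735), and 6 were higher and 3 lower in heterozygous P30 against wild-type P100. Sema3e was among those lower at P100 (log2 difference -0.58, adjusted p = 0.0035) and those higher in heterozygous P30 against wild-type P100 (0.88, adjusted p = 0.000161). With 2 libraries a group, low members such as Ephb4 and Sema3b stayed uncertain even where the difference was large. Sema3b differed by 1.49 ± 0.41 between the genotypes at P30 (edgeR adjusted p = 0.0667). Ephb4 differed by 1.01 ± 0.27 between heterozygous P30 and wild-type P100 (edgeR adjusted p = 0.0432).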
